A study of Triticum aestivum with 24 samples.

Results

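A set of 24 wheat genes had much more RNA in leaves of droughted than of well-watered wild-type plants. On the scale of the deposited values the same comparison was nearly flat in 3 transgenic lines. With every library set to the same sum instead, 3 of the 24 still met the rule given next. The 24 were taken from 107891 gene identifiers by a rule on measured values. The change in a genotype was log2((drought mean + 1)/(well-watered mean + 1)), where a log2 change of 1 is a doubling. A gene was kept if its change in WT was 2 or more, its mean in WT drought was 50 or more, and its change in each line was under 0.7 in size. The WT drought mean was taken from replicates 2 and 3, identifiers without a chromosome were left out, and a limit of 300 genes was not reached. The changes that chose the genes are therefore a description, and no test is attached to them.

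The RNA came from leaves of wheat (Triticum aestivum), a hexaploid that carries most genes as A, B and D copies. WT is the spring wheat Fielder, which per the labels' protocols was also transformed to make the lines. Whether the background is uniform was not tested, and regional deviations between the groups are given below. The lines UBQ, DREM and DEH2 carry a wheat TOR gene (TaTOR) driven by the promoter that each label names. The labels do not give the number of transformation events behind a line. Each of the 4 genotypes has 3 well-watered libraries, from plants at 80% field capacity, and 3 drought libraries. Per the labels' protocols plants were 4 weeks old when watering stopped for 12 days. The day of leaf sampling was not stated, nor whether replicates are separate plants, so p-values measure the spread between these libraries, and that spread may be technical.

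TOR (target of rapamycin) is a conserved kinase and promotes growth when nutrients and energy are plentiful. Plants short of water accumulate the hormone abscisic acid, which closes stomata and raises the RNA of many protective genes, such as those for dehydrins and for enzymes that make compatible solutes. In Arabidopsis TOR phosphorylates abscisic acid receptors and so restrains the hormone's signal in unstressed plants, and under stress the signal in turn inhibits TOR. None of the 107891 identifiers, and so 0 of the 24 genes, matched the gene table used for names, so the genes are given by identifier, which gives the chromosome and a running number on it, and no function is stated for any of them.

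The deposited values were normalized counts, in which 1 read was worth an estimated 0.651 to 1.54 depending on the library (from genes above 0 in a single library), and the estimated depth was 33659900 to 55338700 reads per library. Across genes, replicate libraries had correlations of r = 0.974 to 0.986. WT drought replicate 1 stood apart: its 50 most abundant genes held 29.0% of its total, against 12.6% in each sister library. Expression along parts of 4 chromosomes went against the genotype labels. The start of 1B lay at a median log2 deviation of -3.59 in the libraries labelled DEH2 well-watered and of -3.63 in those labelled DREM drought, but at 0.20 and 0.11 in the other group of the same label. A region of 2A lay at -0.71 in UBQ well-watered and at -0.69 in WT drought, the start of 6B at -2.96 in UBQ drought, and a region of 4B at 0.74 in UBQ drought. Of the 24 genes 0 lay in these 4 regions. The 2 water regimes of a label thus differ along whole regions, in WT too. Whether libraries carry the wrong label or a line is mixed was not tested, nor was the part of these deviations in the results, and group names below mean the libraries labelled so. In whole leaves, fewer cells of a type and less RNA per cell cannot be told apart.

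Most genes that were higher in droughted WT moved with drought in the lines too. Among the 105200 identifiers with a chromosome, 3779 had a WT change of 2 or more, and 2077 of these also reached a WT drought mean of 50. Of the 2077, 1609 or 77.5% changed by 0.7 or more upward in each of the 3 lines 10 changed by as much downward in each, and 70 changed by as much in each with mixed directions. A further 253 stayed under 0.7 in 1 line and 111 in 2 lines, and the 24, or 1.16%, stayed under it in all 3. The same rule with another genotype in the place of WT gave 32 genes for UBQ, 11 for DREM and 7 for DEH2, out of 4179, 2929 and 3363 genes raised in that genotype.

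**Figure D1:**
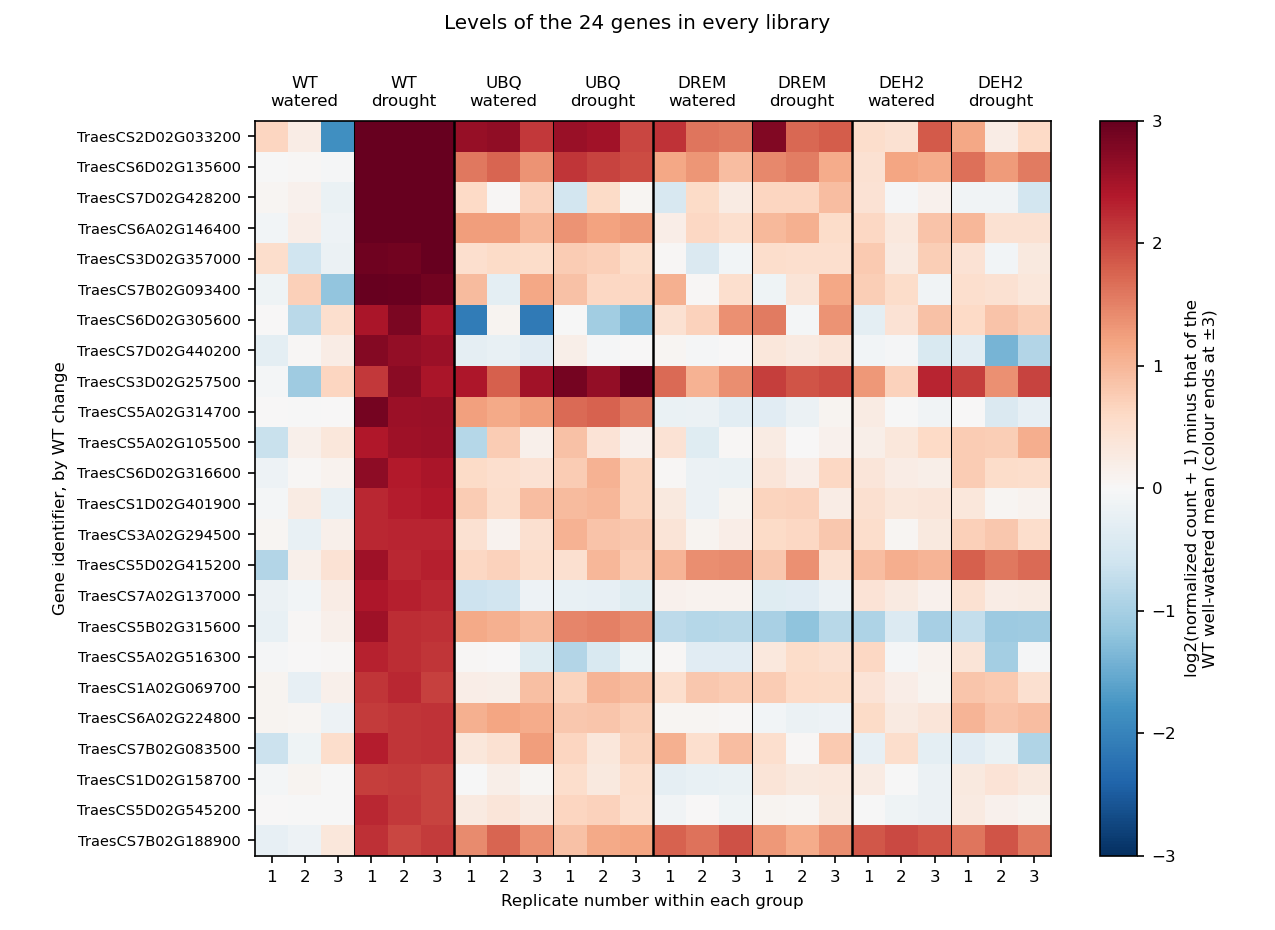
Each row is 1 of the 24 genes and each column 1 of the 24 libraries, grouped by genotype label and water regime; colour is log2(normalized count + 1) minus the same for the WT well-watered mean, with the scale ending at ±3. The 3 WT drought columns are red for every gene, while the line columns are mostly paler, with UBQ redder than DREM and DEH2 for several genes. UBQ is red for TraesCS2D02G033200 and TraesCS3D02G257500. In the latter its droughted cells are about as red as those of WT drought.

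The highest gene of the set was TraesCS7A02G137000, at 5475, 5879.6 and 7192 in the 3 well-watered WT libraries and 33146, 30904 and 29508 under drought. In the lines it held 3993, 4136 and 5566 watered and 5298, 5210.1 and 4792 droughted in UBQ, 6730.1, 6683 and 6703 and 4783, 4852 and 5446 in DREM, and 8263, 7403 and 6732 and 8518, 7194 and 7357 in DEH2. The lowest WT drought library was 3.46 times the highest line library, and the line groups stayed near watered WT. Its mean over all 24 libraries had rank 536 among all identifiers. TraesCS5D02G545200 came next, with 3496, 3489.6 and 3487 in watered WT, 16619.9, 15069.5 and 14205 in droughted WT, and line libraries from 3067 to 5598, with a median of 3758. The lowest WT drought library was 2.54 times the highest line library, which was a UBQ drought library. These 2 genes made up 61.7% to 76.8% of the summed normalized counts of the set, depending on the group.

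The largest change belonged to TraesCS2D02G033200, which was at 4.56, 3.17 and 0 in watered WT and at 184, 162 and 183 in droughted WT. The watered values rest on about 5.14 reads in all, so the fold of the means, 67.1, has a 95% Poisson counting interval from 28.7 to 207. In UBQ it held 20.7, 21.6 and 14.5 watered and 20.6, 19.4 and 13.4 droughted, in DREM 15.1, 9.85 and 9.48 and 23.6, 10.9 and 11.6, and in DEH2 4.15, 3.89 and 11.9 and 6.99, 3.16 and 4.40. The gene was thus near the limit of counting in watered WT and in DEH2, low but measurable in UBQ and DREM, and high in WT drought alone. The second largest change was that of TraesCS6D02G135600, with 28.0, 29.2 and 27.5 in watered and 385, 426 and 393 in droughted WT. Its UBQ libraries held 86.0, 97.7 and 74.0 watered and 128, 118 and 113 droughted, and the other lines lay between 39.2 and 91.4. Each line library lay above the 3 watered WT libraries, and the lowest WT drought library was 3.01 times the highest line library.

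Another 3 genes changed by more than 3 in WT. TraesCS7D02G428200 went from 38.1, 39.7 and 31.7 to 425, 409.8 and 404, TraesCS6A02G146400 from 44.2, 53.8 and 42.0 to 455, 452 and 488, and TraesCS3D02G357000 from 54.1, 24.4 and 33.1 to 288, 281 and 336. Line libraries ran from 24.6 to 69.7, with a median of 41.6 for the first, from 54.1 to 120.1, with a median of 88.7 for the second and from 27.3 to 64.8, with a median of 53.2 for the third, and the lowest WT drought library was 5.79, 3.77 and 4.34 times the highest line library.

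In the middle of the range, at WT changes from 2.29 to 2.93, stood 10 genes. TraesCS7B02G093400 went from 13.2, 24.6 and 5.79 to 171, 121 and 114 and TraesCS7D02G440200 from 87.9, 110.0 and 125 to 735, 678 and 642, with line libraries from 11.6 to 33.8, with a median of 21.3 for the former and from 40.0 to 138, with a median of 105 for the latter. TraesCS5A02G105500 went from 7.21, 13.5 and 15.5 to 68.3, 75.2 and 75.9 and TraesCS3A02G294500 from 104, 85.4 and 111 to 483, 495 and 492. In these 4 genes the 2 WT groups did not overlap, and the lowest WT drought library was 2.34 to 4.64 times the highest line library.

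TraesCS6D02G305600 was weak throughout, with 8.74, 4.55 and 12.9 in watered WT and 52.4, 68.1 and 52.2 in droughted WT. UBQ held 1.25, 9.35 and 1.24 watered and 8.58, 3.74 and 2.88 droughted. DREM held 12.3, 14.6 and 24.0 watered and 27.7, 8.31 and 23.7 droughted, and DEH2 6.93, 12.1 and 17.0 and 13.6, 16.5 and 15.2. A count of 0 allows up to 3 reads, or a value of 1.95 to 4.63, so 4 of the 6 UBQ values are close to that floor. TraesCS6D02G316600 went from 236, 273 and 285 to 1707, 1381 and 1439 and TraesCS1D02G401900 from 83.5, 104 and 74.9 to 420.3, 454 and 467 in WT. In the lines the former ran from 229.9 to 546, with a median of 369, and the latter from 76.9 to 175, with a median of 118. Both had clear levels in every library and no overlap between WT drought and any other group.

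In the remaining 3 middle genes at least 1 line stood well above watered WT. TraesCS5A02G314700 was at 469, 462 and 472 in watered and 3428, 2761 and 2805 in droughted WT, at 1106, 1022 and 1109 in watered and 1529, 1607 and 1397 in droughted UBQ, and between 348 and 556 in DREM and DEH2. TraesCS5D02G415200 was at 14.7, 30.7 and 37.7 and 167, 136 and 143 in watered and droughted WT, and its line libraries ran from 38.4 to 97.8, with a median of 57.0. TraesCS3D02G257500 was at 10.3, 4.61 and 17.4 in watered WT and 49.9, 75.7 and 63.2 in droughted WT, but at 62.0, 39.5 and 66.5 in watered and 85.0, 71.9 and 96.9 in droughted UBQ. In this last gene UBQ under drought reached a mean of 84.6, above the WT drought level, and 5 of the 6 UBQ libraries were above the lowest WT drought library.

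The other 9 genes had WT changes from 2.04 to 2.29 and include TraesCS7A02G137000 and TraesCS5D02G545200, described above. TraesCS5B02G315600 went from 234, 276 and 303 to 1593, 1251 and 1249 in WT, with 601, 573 and 526 in watered and 752, 773 and 723 in droughted UBQ and no DREM or DEH2 library above 204. TraesCS6A02G224800 went from 983, 974 and 841 to 4012, 4112 and 4214, with 1945, 2136 and 2024 in watered and 1642, 1652 and 1549 in droughted UBQ. UBQ was the highest of the watered lines in both genes. TraesCS1A02G069700 went from 98.3, 78.0 and 104 to 416, 455 and 389, TraesCS5A02G516300 from 66.0, 68.8 and 69.2 to 344, 318 and 303, and TraesCS1D02G158700 from 231, 257 and 239 to 1023, 1048 and 994. Their line libraries ran from 98.3 to 189, with a median of 145, from 32.8 to 105, with a median of 67.7, and from 202 to 351, with a median of 292, in that order, all below the lowest WT drought library. The last 2 are on 7B: TraesCS7B02G083500 went from 10.2, 15.2 and 24.4 to 89.3, 76.9 and 77.7, and TraesCS7B02G188900 from 41.1, 44.4 and 62.1 to 228, 199 and 213 with line libraries from 91.1 to 198, with a median of 150.4.

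Over the 24 genes the WT change ran from 2.04 to 5.60 with a median of 2.40, and the ratio of the WT drought mean to the highest of the 6 line group means from 0.821 to 9.11 with a median of 3.01. It was 2 or more in 19 genes. In 24 of 24 genes all 3 WT drought libraries lay above the 3 watered WT libraries, against 31.2% of the 60088 genes tested (those with at least 10 in at least 3 libraries, which all 24 passed). In 23 of 24 genes all 3 WT drought libraries lay above all 21 libraries of the other groups, against 6.07% of the genes tested; the exception was TraesCS3D02G257500. Since the rule used these libraries, apart from 1, nothing is read from these counts. In the lines the changes were small by choice: medians of 0.23 in UBQ, 0.23 in DREM and 0.04 in DEH2, above 0 in 17, 16 and 14 genes.

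The WT drought library that the rule did not use was read on its own. In WT drought replicate 1 the 24 genes had changes against the mean of watered WT from 2.07 to 5.69, with a median of 2.44, while the median of all tested genes was -0.03. All 24 changed by 2 or more, against 6.11% of the genes tested, and by 1 or more, against 14.6%. In all 24 the library lay above the 3 watered WT libraries (39.6% of genes tested), and in 23 above all 21 libraries of the other groups (9.96%), with TraesCS3D02G257500 again the exception. This is 1 library with no test, and the watered WT and line libraries it is set against were all used by the rule.

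The value in replicate 1 was 71.8% to 145% of the mean of replicates 2 and 3, with a median of 106%. The genes with the largest changes in it were TraesCS2D02G033200, at 5.69, and TraesCS6D02G135600, at 3.72, the same genes that led in the mean of replicates 2 and 3. The smallest were those of TraesCS1D02G158700, at 2.07, and TraesCS6A02G224800, at 2.10. The 2 genes that differed most between the replicates were TraesCS7B02G093400, higher in replicate 1, and TraesCS3D02G257500, lower in it. The profile of its most abundant genes set this library apart, and the 24 genes had levels near those of its sisters.

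**Figure D2:**
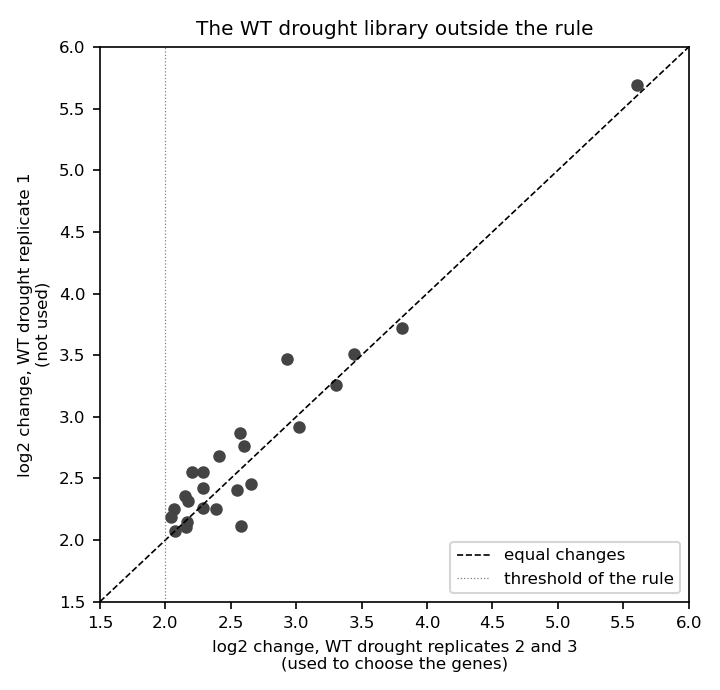
Each point is 1 of the 24 genes; the x axis is the log2 change from watered WT in WT drought replicates 2 and 3, which chose the genes, and the y axis the change in replicate 1, which did not. All points lie between 2.07 and 5.69 on the y axis, and the dashed line marks equal changes.

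Genes just inside and outside the limits for the WT change and for the lines differed little, and those around the limit for the WT drought mean differed more. For the WT change, TraesCS7B02G188900 at 2.04 and TraesCS5D02G545200 at 2.07 were kept, and TraesCS7D02G145200 at 1.97 and TraesCS4B02G087500 at 1.95 were not. For the limit in the lines, TraesCS5D02G415200 with 0.67 in DEH2 and TraesCS3D02G357000 with 0.66 in DREM were kept, and TraesCS4B02G212200 with 0.70 in UBQ (0.703 unrounded) and TraesCS3D02G258400 with 0.73 in DREM were not. For the WT drought mean, TraesCS6D02G305600 at 60.1 and TraesCS3D02G257500 at 69.5 were kept, and TraesCS5D02G441800 at 42.8 and TraesCS4B02G226700 at 38.5 were not.

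How flat the lines were depended on the scaling of the libraries. As deposited, the median change of all tested genes was near 0 in each genotype, while the sum of a library's values was lower under drought in every line, with no overlap. When every library was set to the same sum instead, the median drought change of all tested genes moved to 0.26 for WT, 0.58 for UBQ, 0.52 for DREM and 0.42 for DEH2. The changes of the 24 genes then had a median of 2.70 for WT, and of 0.75, 0.72 and 0.45 for the lines in the order UBQ, DREM and DEH2, and reached 0.7 or more in size in 14 genes in UBQ, 13 in DREM and 8 in DEH2. Relative to the median gene of the same scaling the lines were again nearly flat. The rule applied to these values gave 15 genes, 3 of them among the 24, namely TraesCS7B02G093400, TraesCS7B02G083500 and TraesCS7B02G188900. The excess of the WT change over the highest line change was 1.31 to 4.99 at the same sum, against 1.51 to 5.21 as deposited. WT thus had the largest change in each of the 24 genes on both scales. The rule set that order, with 2 or more in WT and under 0.7 in each line, so nothing is read from it.

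As a share of the library, a measure equal to the same-sum scale, the 24 genes together held 0.0227% to 0.0272% of the total in watered WT and 0.122% to 0.147% in droughted WT. In UBQ the share was 0.0251% to 0.0296% watered and 0.0425% to 0.0479% droughted, in DREM 0.0278% to 0.0284% and 0.0358% to 0.0397%, and in DEH2 0.0269% to 0.0291% and 0.0397% to 0.0451%. Under drought the summed share was higher in every line too, with no overlap, though by less than in WT. The sum mostly follows TraesCS7A02G137000 and TraesCS5D02G545200, which hold 61.7% to 76.8% of it, and says little of the other 22 genes.

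**Figure D3:**
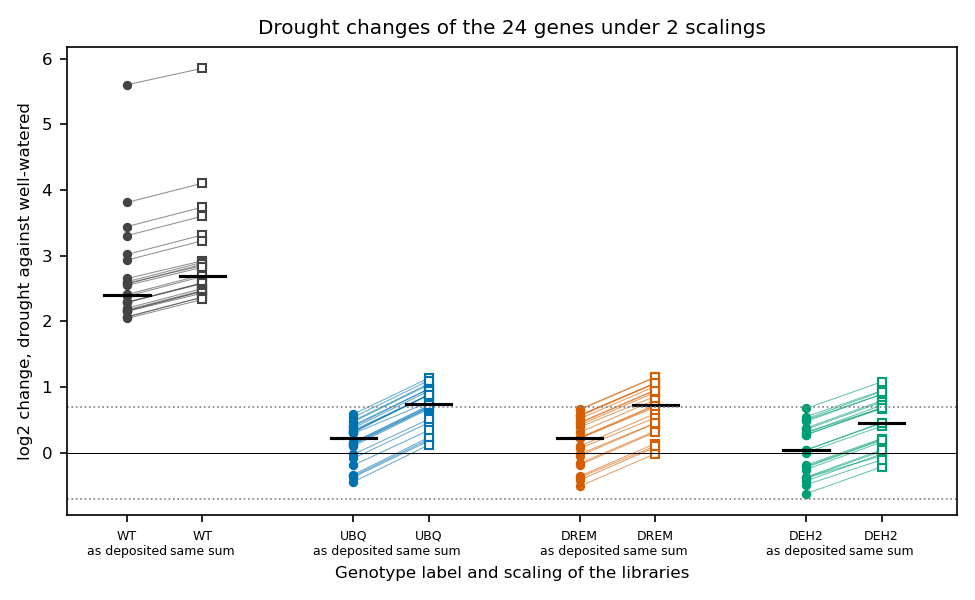
Points are the drought changes (log2) of the 24 genes in each genotype, as deposited (filled circles) and with every library at the same sum (open squares), joined by lines; black bars are medians and dotted lines the limits of ±0.7 in the rule. The medians of the lines move from 0.23, 0.23 and 0.04 to 0.75, 0.72 and 0.45, and those of WT from 2.40 to 2.70.

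The rule fixed how far each line moved with drought but not the level at which it stood. To place that level, the mean of a line's watered and droughted log2 levels was set on a scale from the watered WT mean, at 0%, to the droughted WT mean, at 100%. Medians over the 24 genes were 28.9% for UBQ, 13.2% for DREM and 15.6% for DEH2, so the lines stood mostly nearer to watered WT. UBQ had the highest position of the 3 lines in 15 genes, DREM in 5 and DEH2 in 4. Positions over 50% were found in 4 genes for UBQ, 2 for DREM and 3 for DEH2. This is a description, as both ends of the scale helped to choose the genes. The low watered WT level pushes the positions upward, and the high WT drought level pulls them towards 0%.

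In 9 genes all 3 lines stood at 25% or less of the WT range, averaged over both regimes. The most abundant of them were TraesCS7A02G137000, with positions of -15.6%, -3.96% and 12.8% in UBQ, DREM and DEH2, and TraesCS5D02G545200, with 22.0%, 1.78% and 1.40%. The others were TraesCS7D02G428200, TraesCS3D02G357000, TraesCS7B02G093400, TraesCS7D02G440200, TraesCS5A02G105500, TraesCS5A02G516300 and TraesCS1D02G158700. In 0 genes did all 3 lines reach 75%. The nearest to it, by the lowest of the 3 lines, was TraesCS3D02G257500, at 99.5%, 65.6% and 66.7%, followed by TraesCS7B02G188900, at 63.3%, 74.4% and 88.2%. In these 2 genes the watered lines already held much of the RNA that WT held only under drought, and the small changes of the lines were steps from a raised level. The steps went upward in TraesCS3D02G257500, by 0.59, 0.57 and 0.28 in UBQ, DREM and DEH2. In TraesCS7B02G188900 they went downward, opposite to WT, with changes of -0.44, -0.51 and -0.21. TraesCS5B02G315600 was the most divided, at 57.3% in UBQ, -41.4% in DREM and -38.5% in DEH2, with UBQ above and the other lines below watered WT.

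**Figure D4:**
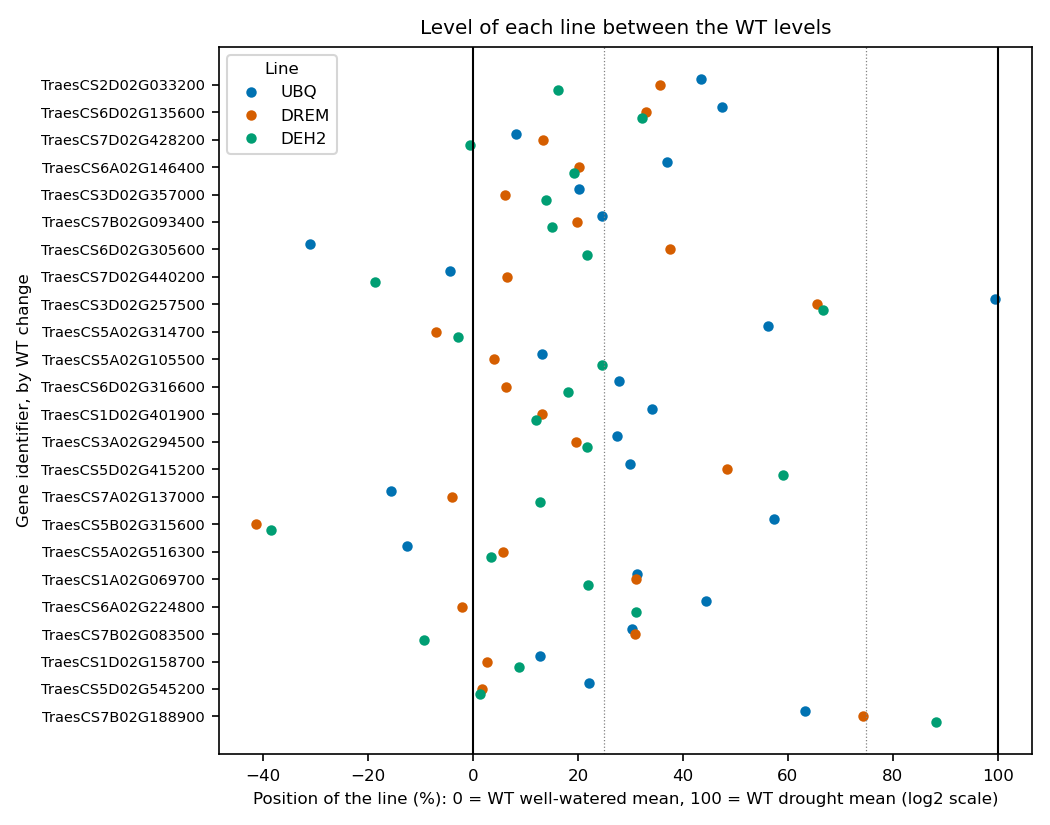
For each of the 24 genes (rows), points give the level of UBQ, DREM and DEH2, averaged over both water regimes on the log2 scale, as a percentage of the way from the WT well-watered mean (0%) to the WT drought mean (100%); dotted lines mark 25% and 75%. Most points lie below 50%, and UBQ has the highest point in 15 rows.

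Against watered WT, the watered lines were compared in a single limma fit across the 60088 tested genes, with a Benjamini-Hochberg adjusted p under 0.05 as the threshold. The comparison shares the watered WT libraries with the rule, which favours genes low in them, so the counts, differences and standard errors describe the set and are not support, and no p-value is given for single genes. In UBQ 15 of the 24 genes were higher and 1 was lower, with a median log2 difference of 0.66, against 31.1% of all tested genes called, 15.2% higher and 15.9% lower. DREM had 7 higher and 1 lower (median 0.12), against 21.3% of all genes called, 9.66% higher and 11.7% lower. DEH2 also had 7 higher and 1 lower (median 0.36), against 19.5% called, 8.98% higher and 10.5% lower. Called differences of 2-fold or more numbered 8 in UBQ, 5 in DREM and 3 in DEH2, against 9.81%, 4.94% and 6.36% of all genes. The gene called lower was TraesCS7A02G137000 in UBQ, at -0.44, and TraesCS5B02G315600 in DREM and DEH2, at -0.82 and -0.77. With every library at the same sum UBQ had 11 higher and 1 lower, against 10.1% and 15.7% of all tested genes. DREM then had 8 and 1, against 14% and 4.97%, and DEH2 had 7 and 1, against 7.51% and 7.06%.

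In UBQ the largest differences from watered WT were those of TraesCS2D02G033200, 2.79 (SE 0.48), and TraesCS3D02G257500, 2.40 (SE 0.35). Their watered WT means were 2.58 and 10.8, so few reads set these differences. In DREM the largest were TraesCS2D02G033200 at 2.10 and TraesCS7B02G188900 at 1.79 (SE 0.15), and in DEH2 TraesCS7B02G188900 at 1.93 (SE 0.15) and TraesCS3D02G257500 at 1.59. Every watered line was called higher than watered WT for 4 genes, TraesCS6D02G135600, TraesCS3D02G257500, TraesCS5D02G415200 and TraesCS7B02G188900, against 2.31% of all tested genes. No line was called different for 7 genes, against 53.5% of all.

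By their labels the lines differ from one another in the promoter that drives TaTOR. Transformation events and the regional deviations given above cannot be told apart from the promoter in these comparisons. The log2 differences between them use no WT library and no contrast of the rule. Their standard errors and p-values rest on a spread estimated over all 24 libraries, WT included. Since each line changed little with drought by choice, the watered and droughted comparisons of a pair are not independent of each other. In watered plants UBQ differed from DREM in 12 of the 24 genes, 9 higher and 3 lower, against 36.1% of all tested genes called, 18.3% higher and 17.8% lower. UBQ differed from DEH2 in 10, 7 higher and 3 lower, against 28.5% of all genes, 14.5% higher and 14.0% lower. DREM differed from DEH2 in 4, 1 higher and 3 lower, against 17.7% of all, 8.61% higher and 9.08% lower. The differences reached 2-fold in 4, 4 and 0 of these genes, against 11.2%, 8.27% and 5.13% of all. With every library at the same sum the split for UBQ against DREM was 6 higher and 6 lower, where 9.49% of all tested genes were called higher and 27.3% lower. For DREM against DEH2 it was 2 higher and 0 lower, with 11.3% of all genes higher and 4.62% lower. The scaling thus moved the split of all genes along with that of the set.

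Under drought UBQ differed from DREM in 10 genes, 7 higher and 3 lower, against 42.8% of all tested genes called, 22.8% higher and 20.0% lower. UBQ differed from DEH2 in 14, 10 higher and 4 lower, against 40.2% of all, 20.2% higher and 20.0% lower. DREM differed from DEH2 in 9, 5 higher and 4 lower, against 42.6% of all, 20.5% higher and 22.1% lower, and at the same sum the split was 7 higher and 3 lower, with 30.8% of all genes higher and 12.9% lower. The differences reached 2-fold in 3, 6 and 3 of these genes, against 14.6%, 13.5% and 13.5% of all. Median log2 differences of UBQ from DREM were 0.31 watered and 0.23 droughted, and from DEH2 0.23 and 0.27, while the medians of all tested genes were near 0. The median size of the difference under drought was 0.34 for UBQ and DREM and 0.26 for DREM and DEH2, against 0.35 for all tested genes in both. For UBQ and DEH2 under drought it was 0.57, against 0.33. In watered plants it was 0.50 for UBQ and DREM, against 0.31, and 0.40 for UBQ and DEH2, against 0.26. For watered DREM and DEH2 it was 0.25, against 0.21. For UBQ against DREM under drought and for DREM against DEH2 in both regimes the set's count was near that of all genes or below it; in the other 3 comparisons it was above.

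Among the largest differences in which UBQ was higher were those of 2 genes on chromosomes of group 5. TraesCS5B02G315600 was higher in UBQ than in DREM by 1.89 (SE 0.13, adjusted p = 9.21e-13) in watered plants (limma, here and below) and by 2.47 (SE 0.13, adjusted p = 1.02e-15) under drought. Against DEH2 it was higher by 1.84 and 2.42. TraesCS5A02G314700 followed, with UBQ above DREM by 1.43 (SE 0.11, adjusted p = 1.13e-11) watered and 1.83 (SE 0.11, adjusted p = 3.73e-14) droughted, and above DEH2 by 1.16 and 1.90. In the 2 genes the UBQ libraries did not overlap those of the other lines in either regime, and their means of UBQ under drought, 749 ± 25.4 and 1511 ± 106 (SD, n = 3), stayed below the WT drought means of 1365 ± 198 and 2998 ± 373 (SD, n = 3).

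TraesCS5D02G545200 was also higher in UBQ than in both other lines in both regimes, by smaller log2 differences of 0.37 and 0.47 over DREM and 0.41 and 0.45 over DEH2. At the same sum its watered difference from DREM was 0.17 and no longer passed the threshold. The 3 genes with this pattern compare with 2.26% of all tested genes. The reverse pattern, UBQ below both lines in both regimes, was found in 1 gene, TraesCS6D02G305600 (1.76% of all), with log2 differences of -2.21 and -1.74 against DREM and of -1.72 and -1.52 against DEH2. Its UBQ values lie near the floor of counting and 2 of the 4 comparisons had overlapping libraries.

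TraesCS6A02G224800 was high in UBQ in both regimes and in DEH2 under drought. In watered plants UBQ held 2035 ± 95.9, DREM 963 ± 12.8 and DEH2 1243 ± 140.3 (SD, n = 3), and under drought 1615 ± 56.6, 847 ± 24.2 and 1776 ± 99.5 (SD, n = 3). UBQ was above DREM by 1.08 (SE 0.07, adjusted p = 5e-14) watered and 0.93 (SE 0.07, adjusted p = 8.86e-13) droughted, and above DEH2 by 0.72 (SE 0.07, adjusted p = 7.17e-10) in watered plants. DREM was below DEH2, with log2 differences of -0.36 watered and -1.07 (SE 0.07, adjusted p = 2.95e-14) under drought. UBQ and DEH2 under drought were not called different, with a difference of -0.14 (95% interval -0.28 to 0.00).

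TraesCS7A02G137000, the highest gene, was lower in watered UBQ than in DREM, with a log2 difference of -0.57 (SE 0.12, adjusted p = 0.000593), and than in DEH2, with -0.72 (SE 0.12, adjusted p = 8.01e-05). Under drought it was lower than in DEH2 both in UBQ, with -0.59, and in DREM, with -0.61. The means under drought were 5099.9 ± 270.1 in UBQ, 5027 ± 365 in DREM, 7689.9 ± 722 in DEH2 and 31186 ± 1835 in WT (SD, n = 3). The lines differed from one another by far less than each did from WT. That contrast with WT is a description, as the rule chose the gene for its rise in WT and flat lines.

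DREM and DEH2 were not called different in either regime for 12 genes, against 50.5% of all tested genes. Under drought the largest differences in which DREM was higher were those of TraesCS2D02G033200, 1.45 (SE 0.48, adjusted p = 0.0152), and TraesCS7D02G440200, 1.19 (SE 0.18, adjusted p = 1.7e-06). DREM was lower in TraesCS6A02G224800, given above, and in TraesCS5D02G415200, with -0.81 (SE 0.25, adjusted p = 0.00841). The 4 genes called in watered plants were TraesCS3D02G357000, TraesCS6D02G316600 and TraesCS6A02G224800, lower in DREM, and TraesCS1A02G069700, higher in it. Their differences were -0.76, -0.37, -0.36 and 0.46. This last count fell to 1 without DREM well-watered replicate 2, to 2 without its replicate 3 and to 2 without DEH2 well-watered replicate 1.

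Without UBQ well-watered replicate 1, UBQ against DEH2 in watered plants went from 10 genes called to 6, with 23.4% of all tested genes called. Smaller moves were from 9 to 6 in DREM against DEH2 under drought without DEH2 drought replicate 2 (38.6% of all), from 8 to 6 in DEH2 against WT without DEH2 well-watered replicate 3 (17.0% of all), and from 16 to 13 in UBQ against WT without UBQ well-watered replicate 1 or 3 (26.0% and 28.7% of all). None of the 6 comparisons between lines was called for 3 genes, TraesCS7B02G093400, TraesCS5A02G105500 and TraesCS3A02G294500, against 24.7% of all tested genes. The 95% intervals over the 6 comparisons ran from -0.36 to 0.50 for TraesCS3A02G294500, a narrow range, and from -0.80 to 1.10 and from -1.47 to 1.07 for the other two. For these, the intervals leave room for a log2 difference of 1 between lines.

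**Figure D5:**
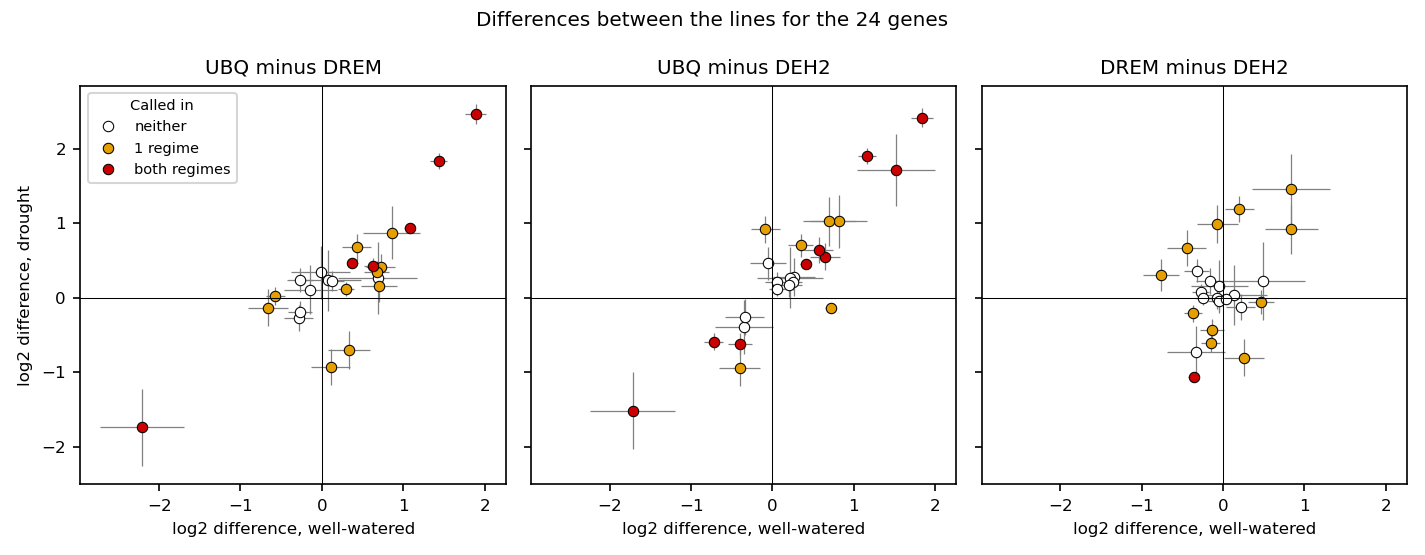
For each of the 24 genes (points) the log2 difference between 2 lines is plotted for watered plants (x axis) and droughted plants (y axis), with bars of 1 standard error from limma; fill shows whether the difference was called in neither, 1 or both regimes. For UBQ against DREM and DEH2 the points run from -2.21 to 1.89 in watered and from -1.74 to 2.47 in droughted plants. DREM against DEH2 spans -0.76 to 0.84 in watered and -1.07 to 1.45 in droughted plants.

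The 24 genes lie on 13 of the 21 chromosomes. The D subgenome held 12, the A subgenome 8 and the B subgenome 4, or 50%, 33.3% and 16.7%, whereas the 2077 genes raised in WT were divided into 36.6%, 31.8% and 31.6%, and the 60088 tested genes almost equally. Chromosomes 5A, 6D and 7B held 3 each, and group 4 and chromosomes 1B, 2A, 2B, 3B and 6B held 0. The closest neighbours by identifier were TraesCS7B02G083500 and TraesCS7B02G093400, 99 steps of numbering apart, so the set holds no run of adjacent genes. Homoeologous copies share most of their sequence, and reads may have been split among them, so the value of a single copy is uncertain to that extent.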

How the data were processed

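Leaf RNA-seq of 24 wheat libraries, 3 in each of 8 groups by genotype and water regime, was analysed. The table of normalized counts is a signal scaled between libraries and deposited by the authors; its values are not whole numbers, so no count model was run. Per the submitters' processing notes, CASAVA, Trimmomatic, STAR, Salmon and DESeq2 were used, without versions, and the genome build is not stated. The series' design text and the sample labels differ in the number of samples, of genotypes and of treatments and in the genotype names, and the labels were followed. The 24 genes, the gene rule and the tests were chosen with earlier results of these data known.

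Genes with a value of at least 10 in at least 3 libraries (60088 of 107891) were fitted as log2(value + 1) in limma 3.58.1 (R 4.3.3), with 8 group means over the 24 libraries and trend and robust options. Fold changes on this scale understate the change of low genes. P-values were two-sided and Benjamini-Hochberg adjusted within each of the 9 comparisons, with a threshold of 0.05. The code was tested on simulated data. All 24 genes are named. Counting intervals and floors of 3 reads cover counting error only. Replicate numbers were checked for pairing in the 9 comparisons, all within a water regime, and none was seen. Alternatives were other pseudocounts, filters, scalings and rule limits, a replicate block, and leaving out each replicate; 2 were added after seeing the data, the fit without WT drought replicate 1 and its exchange for replicate 2 or 3.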

Additional observations from a re-analysis of the deposited data

How the results depend on the processing

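Membership depended on the limits and on scaling. The rule gave 12 genes with a limit of 0.5 in each line, 60 with a limit of 1, 72 with a WT change of 1.5 or more, 5 with a WT change of 3 or more, and 15 at the same sum in every library, 3 of them among the 24; leaving out a replicate gave 21 to 30. The median change in WT drought replicate 1, 2.44, became 2.35 at the same sum, 2.24 with a pseudocount of 10, and 2.37 with replicate 2 in its place, and ran from 2.32 to 2.68 without a watered WT replicate. Same-sum scaling moved the median of all genes to -0.19 in UBQ against DREM watered, 0.12 in DREM against DEH2 watered, -0.12 in UBQ against DREM under drought, 0.20 in DREM against DEH2 under drought and 0.13 in DREM against WT. It left 2 genes called in DREM against DEH2 watered. Leaving out a replicate gave 1 to 4 genes in that comparison and 6 to 9 in UBQ against DEH2 watered. The cause of these shifts was not tested. Of the 91 called differences of single genes, 32 lost their call in at least 1 alternative and 0 reversed; of the 112 lost calls, 87 came from leaving out a replicate and 13 from the same sum. Same-numbered libraries deviated together at r = -0.06 to 0.05 in the 9 comparisons, so no pairing by number was seen there. Pairing between watered and droughted libraries was not tested. With the replicate block the watered counts were 13, 11 and 3 (UBQ against DREM, UBQ against DEH2, DREM against DEH2). Under drought they were 10, 14 and 9, and UBQ, DREM and DEH2 against WT gave 16, 7 and 8. Depth limits the genes near the floor, TraesCS2D02G033200 and TraesCS6D02G305600.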
